A study of Homo sapiens with 12 samples.

Results

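ATM, ATR, ATRIP, TOPBP1, CHEK1, CHEK2, WEE1, MDC1, RNF8 and RNF168 are kinases and mediators of DNA damage signalling. They were chosen by gene symbol and by no rule on measured values, though earlier results of these data were known. These 10 genes were all found among the 60675 genes of the expression table, and all 10 were among the 15303 genes tested, with no deposited value below 4.99 TPM (reads per gene length, set to a fixed total per library). RNA was sequenced from MCF10A, a human breast epithelial line that is immortalized but forms no tumours. The 12 libraries fell into 6 groups of 2 biological replicates: WT, IL1R1-KO and IL1RAP-KO cells without irradiation, and the same 3 genotypes irradiated once with 20 Gy (their names then end in RT). IL1R1 is the interleukin-1 receptor and IL1RAP its accessory chain. The KO cells were made by lentiviral delivery of Cas9 and a guide RNA with puromycin selection and were used as pooled cells, not clones. Which guide each KO library carried and how long after irradiation RNA was taken are not given in the sources used here. The comparisons asked how these signalling genes responded to a single high dose and whether loss of either receptor chain went with another response.

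In DNA damage signalling, ATM is activated at double-strand breaks, while ATR, bound to its partner ATRIP, is activated by TOPBP1 on RPA-coated single-stranded DNA. ATM phosphorylates histone H2AX, MDC1 binds that mark, and the ubiquitin ligases RNF8 and then RNF168 build the chromatin platform that recruits 53BP1 and BRCA1. CHEK2 and CHEK1 carry the signal from ATM and ATR to the CDC25 phosphatases, and WEE1 holds CDK1 inactive before mitosis. These proteins are controlled largely by phosphorylation and turnover, and RNA levels do not measure their activity.

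The values are deposited TPM rescaled by trimmed mean factors (scaled TPM), tested with limma on log2(scaled TPM + 1). A fold change on this scale understates the change of low genes. "Rose" and "fell" below mean a Benjamini-Hochberg adjusted p under 0.05 over all 15303 genes, and "called" also needs a fold change over 2. TPM keep no sequencing depth, so no interval for counting error is given, and 95% intervals come from the fit. In RNA from whole cultures, fewer cells of a type and less RNA per cell cannot be told apart. Basal epithelial markers were present (8 of 8 at 1 TPM or more, summing to 4454 to 5399 TPM in untreated libraries and 2028 to 4134 after RT). Of 5 leukocyte markers only CD14 passed 1 TPM in 2 libraries, and the list summed to 6.27 to 21.7 TPM untreated and 19.9 to 71.7 after RT. The 6 fibroblast markers, mostly DCN, summed to 18.7 to 24.5 TPM untreated and 38.9 to 78.2 after RT, and the 6 luminal epithelial markers to 462 to 509 and then 185 to 309. The 4 endothelial markers summed to 3.11 to 5.18 TPM and then 5.82 to 8.96. The part of these marker lists in the results was not tested. Mitochondrial transcripts took 18.3% to 21.1% of TPM in untreated libraries and 36.9% to 57.0% in irradiated ones. The 57.0% share was that of IL1RAP-KO RT replicate 2. The 2 IL1RAP-KO RT libraries correlated least of the replicate pairs (r = 0.972 across genes), and replicate 1 correlated best with IL1R1-KO RT replicate 2. IL1RAP mRNA was at 19.4 scaled TPM in WT and 4.69 in IL1RAP-KO cells (log2 fold change -1.84, limma adjusted p = 0.0133). IL1R1 mRNA was not lower in the cells labelled so (-0.10, limma adjusted p = 1), so RNA does not check that label. Western blots in the paper showed depletion of IL1RAP protein in cells with guides against IL1RAP. The paper found no suitable antibody for IL1R1, and checked KO of both genes by function as well. In its Western blots, IL-1α or IL-1β led to loss of the NF-κB inhibitor IκBα in wild-type cells. Cells with guides against IL1R1 or IL1RAP resisted this loss, which the paper read as successful KO of both genes.

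CHEK1 was the one gene of the 10 called in all 3 genotypes after RT, and ATM was the one that rose. RNF8 was 1 of 6 that fell in WT cells. The bases upstream of these 3 are shown for that reason, CHEK1 by a rule set on calls and ATM and RNF8 chosen after their values were seen. They are the RefSeq windows before a transcription start (GRCh38.p14, plus strand, 5′ to 3′), less bases annotated as exon. Capitals mark CCAAT boxes, the NF-Y element, here on the opposite strand as ATTGG, and the letters TTTAAA, a form of the cell cycle homology region.
CHEK1 upstream, chr11:125626035-125626228: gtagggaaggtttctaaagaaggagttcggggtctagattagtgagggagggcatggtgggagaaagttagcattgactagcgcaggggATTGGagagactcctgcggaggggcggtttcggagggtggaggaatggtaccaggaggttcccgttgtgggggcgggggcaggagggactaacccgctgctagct
ATM upstream, chr11:108222817-108223043: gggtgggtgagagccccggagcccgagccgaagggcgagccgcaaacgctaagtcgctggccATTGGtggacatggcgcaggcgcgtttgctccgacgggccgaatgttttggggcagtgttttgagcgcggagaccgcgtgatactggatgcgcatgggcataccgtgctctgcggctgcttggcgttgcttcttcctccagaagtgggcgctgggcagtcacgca
RNF8 upstream, chr6:37353733-37353978: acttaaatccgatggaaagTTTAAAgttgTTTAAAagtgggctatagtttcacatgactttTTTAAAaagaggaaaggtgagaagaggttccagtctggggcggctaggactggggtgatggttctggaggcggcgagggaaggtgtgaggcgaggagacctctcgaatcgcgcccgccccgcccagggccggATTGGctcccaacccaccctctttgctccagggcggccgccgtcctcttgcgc

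The CCAAT box lay 105 bases before the start in CHEK1, 188 in ATM and 57 in RNF8. The CHEK1 window lies in an intron of the longer annotated gene, since other annotated starts are further upstream. CCAAT was found on either strand in 6 of the 9 windows at hand (33.0% of 27305 windows of the same length held it), TTTGAA in 2 of 9 (13.6%), and TTTAAA in 1 of 9 (11.4%). The ATM window held TTTGAA 20 bases before the start, outside the bases shown above. The letters TTCCCGC were in 0 of 9 (5.59%), TTGGCGC in 2 of 9 (2.63%) and TTCGCGC in 1 of 9 (1.93%). The last 3 are E2F-like and can overlap each other. CHEK1, the gene with the largest fall, had none of the 3 E2F-like strings in the window searched. Only the first listed window of each gene was searched. CHEK1 has 3 windows, and its other starts were not examined. A match of letters is a description and not a binding site. WEE1 had no window.

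After 20 Gy in WT cells, 6 of the 10 genes fell (CHEK1, CHEK2, MDC1, RNF8, ATRIP and TOPBP1), ATM rose, and ATR, RNF168 and WEE1 passed in neither direction. Over all genes tested, 23.7% fell and 19.8% rose. CHEK1 alone was called, against 6.23% of all genes called lower and 7.02% called higher. Both irradiated WT libraries lay below both untreated ones for 7 of 10 genes (37.8% of all genes) and above them for 1 (36.4%). The median log2 fold change of the 10 genes was -0.59, beside 0 over all genes.

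In IL1R1-KO-labelled cells, 5 of 10 fell after RT (26.1% of all genes) and 0 rose (22%). Of these, 2 were called lower, CHEK1 and ATRIP (8.35%), and 0 called higher (7.97%). In IL1RAP-KO cells, 4 fell (27.3%) and ATM rose (22.7%), with CHEK1 called lower (9.33%) and 0 called higher (8.09%). Both irradiated libraries lay below both untreated ones for 7 of 10 genes in each KO line (38.2% and 37.1% of all genes), and above them for 1 (37.5%) and 2 (35.5%). The medians of the 10 genes were -0.36 and -0.28. The 4 genes that fell in every genotype were CHEK1, CHEK2, ATRIP and TOPBP1. The counts at any fold in IL1RAP-KO cells dropped to 2 lower when IL1RAP-KO replicate 2 was left out.

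**Figure D1:**
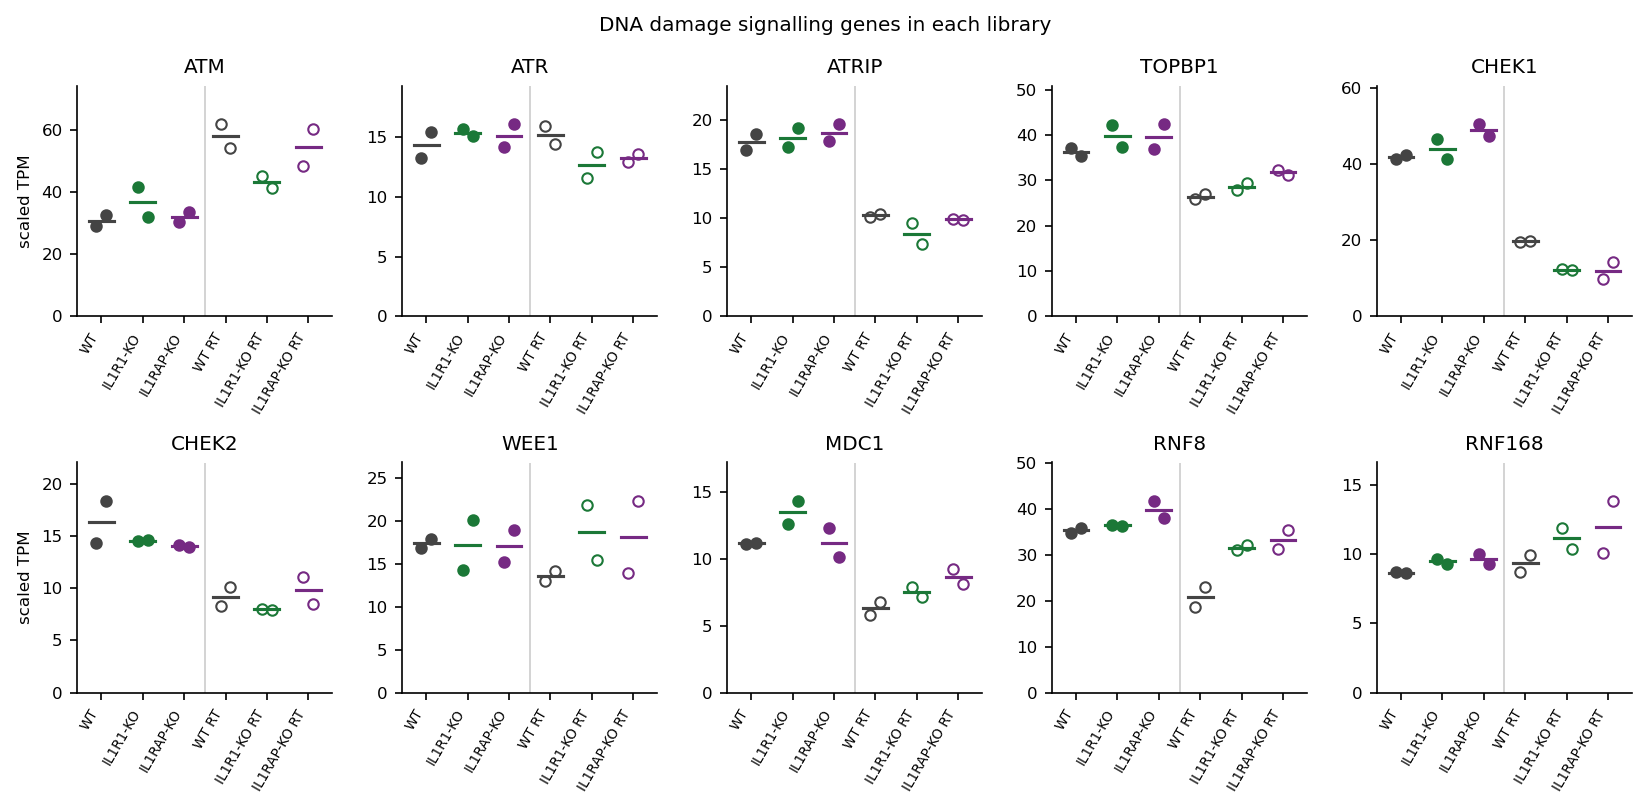
Scaled TPM of the 10 genes (y axes from 0) in the 12 libraries, by group, with filled points untreated, open points after 20 Gy and lines at the mean of 2 libraries. CHEK1 was at 41.3 to 50.4 in every untreated library and 9.63 to 19.8 in every irradiated one, while ATM was higher after RT in WT and IL1RAP-KO cells.

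ATM (ENSG00000149311, chromosome 11, 108223044 to 108369102, GRCh38), the kinase of double-strand breaks, was at 28.8 and 32.6 scaled TPM in WT and at 61.7 and 54.1 in WT RT. It was at 30.3 and 33.5 in IL1RAP-KO and at 48.4 and 60.1 in IL1RAP-KO RT. Both irradiated groups lay wholly above their untreated cells. The log2 fold change was 0.89 in WT (SE 0.15, limma adjusted p = 0.000974) and 0.74 in IL1RAP-KO (limma adjusted p = 0.00226). In IL1R1-KO-labelled cells, ATM was at 41.5 and 31.8 untreated and at 45.2 and 41.1 after RT, where the groups overlapped (0.24, 95% interval -0.09 to 0.57, limma adjusted p = 0.206). This response was not shown to differ from that of WT (interaction -0.65, limma adjusted p = 0.139).

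ATR (ENSG00000175054, chromosome 3, 142449007 to 142578733), the kinase of replication stress, passed the test in no genotype. Its 6 untreated libraries spanned 13.3 to 16.1 scaled TPM and its 6 irradiated libraries 11.6 to 16. The groups overlapped in WT, while in each KO line both irradiated libraries lay below both untreated ones (15.7 and 15.2 against 11.6 and 13.8 under the IL1R1-KO label, 14.2 and 16.1 against 13 and 13.6 in IL1RAP-KO). The log2 fold change after RT was 0.08 in WT (95% interval -0.19 to 0.36), -0.26 in IL1R1-KO-labelled cells (-0.54 to 0.01) and -0.17 in IL1RAP-KO (-0.45 to 0.10). With TPM as deposited ATR passed as lower in IL1RAP-KO (-0.49, limma adjusted p = 0.0134), and under the nuclear protein-coding scaling it was at 0.19 and 0.21 in the KO lines. The ratio of ATM to ATR was 2.14 ± 0.047 in WT and 3.80 ± 0.088 in WT RT (SD, n = 2). It went from 2.11 ± 0.039 to 4.08 ± 0.49 in IL1RAP-KO cells and from 2.37 ± 0.39 to 3.44 ± 0.64 in IL1R1-KO-labelled cells. The libraries did not overlap in any genotype.

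ATRIP (ENSG00000164053, chromosome 3, 48446710 to 48467645), which brings ATR to RPA, fell in every genotype. It was at 16.9 and 18.6 scaled TPM in WT and at 10.2 and 10.5 in WT RT. In IL1R1-KO-labelled cells it was at 17.2 and 19.2 and then at 9.44 and 7.37, and in IL1RAP-KO cells at 17.9 and 19.6 and then at 9.95 and 9.79. No irradiated library reached an untreated one. The log2 fold changes were -0.73, -1.04 and -0.86, with limma adjusted p = 0.00126, 0.000105 and 0.000356. The call in IL1R1-KO-labelled cells lost its fold without IL1R1-KO replicate 2 (-0.96) and without IL1R1-KO RT replicate 2 (-0.88). The call also lost its fold under the nuclear protein-coding scaling, where ATRIP still fell (-0.59, limma adjusted p = 0.00442). With TPM as deposited ATRIP was called lower in IL1RAP-KO as well (-1.17, limma adjusted p = 0.000252). TREX1, on the same strand, overlaps ATRIP exons and was at 0.49 to 4.33 TPM, and how reads common to both were counted is not given in the sources used here.

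The ratio of ATR to ATRIP was 0.81 ± 0.034 in WT and 1.48 ± 0.13 in WT RT (SD, n = 2). In the other genotypes it was 0.85 and 0.81 untreated and 1.55 and 1.346 after RT.

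TOPBP1 (ENSG00000163781, chromosome 3, 133598175 to 133662380), the activator of ATR, was at 37.1 and 35.3 scaled TPM in WT and at 25.8 and 26.9 in WT RT. It was at 42.3 and 37.5 in IL1R1-KO-labelled cells and at 27.8 and 29.4 after RT. In IL1RAP-KO cells it was at 36.9 and 42.4 and then at 32.3 and 31.2. Irradiated libraries were below untreated ones in each genotype, by log2 fold changes of -0.44, -0.46 and -0.31 (limma adjusted p = 0.00442, 0.00298 and 0.0229). In both KO lines the direction turned when libraries were scaled to nuclear protein-coding genes (0.0078 and 0.093). The IL1RAP-KO value missed the threshold without replicate 2 of either the untreated (limma adjusted p = 0.18) or the irradiated IL1RAP-KO cells (0.0681).

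CHEK1 (ENSG00000149554, chromosome 11, 125625163 to 125676255), the effector kinase of ATR, had the largest fall of the 10 in each genotype. It was at 41.3 and 42.3 scaled TPM in WT and at 19.5 and 19.8 in WT RT. Under the IL1R1-KO label it was at 46.5 and 41.3 and then at 12.3 and 12.2. In IL1RAP-KO cells it was at 50.4 and 47.3 and then at 9.63 and 14.2. Every irradiated KO library was below both WT RT libraries. The log2 fold change after RT was -1.05 in WT (SE 0.14, limma adjusted p = 0.000318), -1.76 in IL1R1-KO-labelled cells (limma adjusted p = 9.16e-06) and -1.97 in IL1RAP-KO (limma adjusted p = 4.99e-06). In WT the value was -0.93, short of the fold threshold, when scaled to nuclear protein-coding genes (limma adjusted p = 0.000908). STT3A, on the same strand, overlaps 1 CHEK1 exon and was at 73.2 to 173 TPM.

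CHEK2 (ENSG00000183765, chromosome 22, 28687743 to 28742422), the effector kinase of ATM, was at 14.3 and 18.4 scaled TPM in WT and at 8.33 and 10.1 in WT RT. In IL1R1-KO-labelled cells it was at 14.5 and 14.6 and then at 7.99 and 7.93, and in IL1RAP-KO cells at 14.1 and 13.9 and then at 11.1 and 8.48. No group of irradiated libraries overlapped its untreated cells. The log2 fold changes were -0.76, -0.80 and -0.49 (limma adjusted p = 0.00308, 0.00198 and 0.0242). Without either untreated IL1RAP-KO library the last value was -0.48 and -0.50, close to that with all libraries, though its adjusted p by limma was 0.0928 and 0.0834. It was -0.31 without IL1RAP-KO RT replicate 2 (0.144) and missed the threshold under the nuclear scaling (-0.11, limma adjusted p = 0.59). The 5 CHEK2 pseudogenes in the table (CHEK2P1 to CHEK2P5) were listed at 0 in every library.

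The ratio of CHEK1 to CHEK2 was 2.59 ± 0.41 in WT and 2.15 ± 0.27 in WT RT, which overlapped (SD, n = 2). It was 3.02 ± 0.28 and 1.54 ± 0.0020 in IL1R1-KO-labelled cells, and 3.49 ± 0.13 and 1.27 ± 0.57 in IL1RAP-KO cells, where the libraries did not overlap.

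WEE1 (ENSG00000166483, chromosome 11, 9573670 to 9593457), the inhibitory kinase of CDK1, varied most between replicates. It was at 16.9 and 17.9 scaled TPM in WT and at 13 and 14.1 in WT RT. Under the IL1R1-KO label it was at 14.2 and 20.1 and then at 21.9 and 15.4, and in IL1RAP-KO cells at 15.2 and 18.9 and then at 14 and 22.3. The groups overlapped in both KO lines and not in WT. The log2 fold changes were -0.34, 0.11 and 0.06 with an SE of 0.24 each, and the 95% interval in WT ran from -0.87 to 0.19.

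MDC1 (ENSG00000137337, chromosome 6, 30699807 to 30717447), the reader of phosphorylated H2AX, was at 11.2 and 11.2 scaled TPM in WT and at 5.79 and 6.82 in WT RT. Under the IL1R1-KO label it was at 12.6 and 14.4 and then at 7.90 and 7.19. Both pairs of groups were apart, and MDC1 fell by 0.74 and 0.76 on the log2 scale (limma adjusted p = 0.00179 and 0.00127). In IL1RAP-KO cells it was at 12.3 and 10.2 and then at 9.26 and 8.11, a log2 fold change of -0.33 that did not pass (95% interval -0.64 to -0.03, limma adjusted p = 0.0665). Under the nuclear scaling MDC1 did not pass in IL1R1-KO-labelled cells (-0.32, limma adjusted p = 0.0834) and turned to 0.040 in IL1RAP-KO, where it passed at -0.64 with TPM as deposited (limma adjusted p = 0.0171).

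RNF8 (ENSG00000112130, chromosome 6, 37353979 to 37394734), the first ubiquitin ligase of the relay, was at 34.9 and 35.9 scaled TPM in WT and at 18.7 and 23 in WT RT. It fell in WT with a log2 fold change of -0.74 (SE 0.11, limma adjusted p = 0.000462). Under the IL1R1-KO label it was at 36.5 and 36.4 and then at 31.0 and 32.3, and in IL1RAP-KO cells at 41.8 and 38.0 and then at 31.3 and 35.5. Irradiated KO libraries were below their untreated cells but above both WT RT libraries. The responses in the KO lines, -0.20 and -0.25, did not pass (limma adjusted p = 0.159 and 0.0785). Under the nuclear scaling they turned to 0.27 and 0.15, which did not pass either. The IL1RAP-KO value passed with TPM as deposited (-0.59, limma adjusted p = 0.0046) and without IL1RAP-KO RT replicate 2 (-0.34, limma adjusted p = 0.0468).

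RNF168 (ENSG00000163961, chromosome 3, 196468783 to 196503768), the ligase that follows RNF8 on chromatin, was the lowest of the 10 in untreated cells. Its 6 untreated libraries spanned 8.63 to 10.0 scaled TPM and its 6 irradiated libraries 8.73 to 13.9, and the highest value was in IL1RAP-KO RT replicate 2. The log2 fold changes were 0.09, 0.21 and 0.27, and none passed (95% interval in IL1RAP-KO -0.07 to 0.60). The ratio of RNF8 to RNF168 was 4.07 ± 0.12 in WT and 2.22 ± 0.11 in WT RT (SD, n = 2). It went from 3.83 ± 0.10 to 2.85 ± 0.35 in IL1R1-KO-labelled cells and from 4.13 ± 0.048 to 2.83 ± 0.39 in IL1RAP-KO cells. The libraries did not overlap in any genotype.

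**Figure D2:**
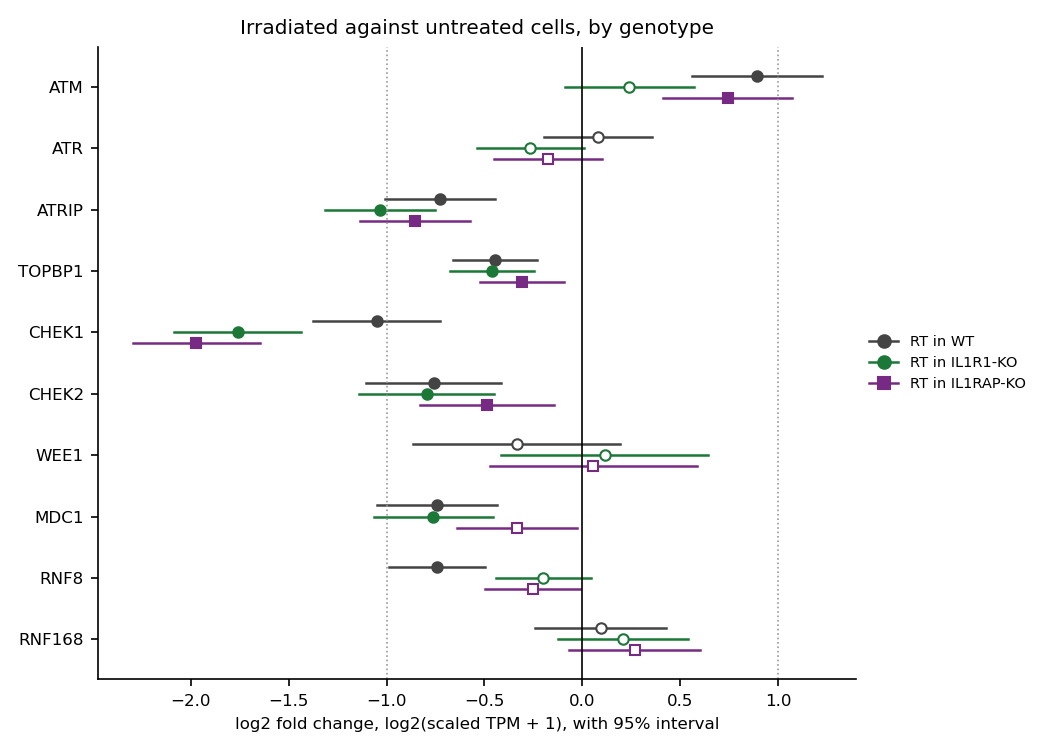
Log2 fold change of irradiated against untreated cells (x axis, bars are 95% intervals from the fit) for the 10 genes in WT, IL1R1-KO and IL1RAP-KO cells. Filled points have an adjusted p under 0.05 and dotted lines mark a fold change of 2: CHEK1 lies at -1.05, -1.76 and -1.97, and ATM is the one gene filled to the right of 0.

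The order of levels changed with irradiation. In WT cells CHEK1 was highest at 41.8 scaled TPM, followed by TOPBP1 (36.2), RNF8 (35.4), ATM (30.7), ATRIP (17.7), WEE1 (17.4), CHEK2 (16.3), ATR (14.4), MDC1 (11.2) and RNF168 (8.69). Libraries overlapped between TOPBP1 and RNF8 and between neighbours from ATRIP to ATR, and not between the other neighbours. In WT RT, ATM was highest at 57.9, followed by TOPBP1 (26.4), RNF8 (20.9), CHEK1 (19.6), ATR (15.2), WEE1 (13.6), ATRIP (10.3), RNF168 (9.35), CHEK2 (9.20) and MDC1 (6.30). Here the overlaps were between RNF8 and CHEK1 and between RNF168 and CHEK2. Among all genes tested, ATM stood at the 74th percentile of levels in WT and the 88th in WT RT, and CHEK1 at the 80th and the 66th. ATM was also the highest of the 10 in both irradiated KO lines (43.2 and 54.3).

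Untreated KO cells did not differ detectably from WT in any of the 10 genes. In IL1R1-KO-labelled cells the log2 differences ran from -0.15 to 0.25, with 0 of 10 genes passing by limma (0.163% of all genes lower and 0.0196% higher), and in IL1RAP-KO cells from -0.20 to 0.22 with 0 of 10 (0.124% lower and 0% higher). At an unadjusted p under 0.05 the count was also 0 in both, and the lowest unadjusted p was 0.0987. Both KO libraries lay above both WT libraries for 4 genes and below them for 0 in IL1R1-KO-labelled cells (19.5% and 17.4% of all genes), and for 3 and 1 in IL1RAP-KO cells (19.6% and 18.2%). The widest 95% intervals, those of WEE1, reached from -0.57 to 0.50.

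After RT, CHEK1 was lower and RNF8 higher in both KO lines than in WT RT. The KO lines are compared with the same 2 WT RT libraries, so these values are not independent of each other. For CHEK1 the log2 difference was -0.64 in IL1R1-KO-labelled cells (95% interval -0.96 to -0.32, limma adjusted p = 0.0192) and -0.70 in IL1RAP-KO (-1.03 to -0.38, limma adjusted p = 0.0143). For RNF8 it was 0.58 (0.34 to 0.83, limma adjusted p = 0.00791) and 0.66 (0.41 to 0.90, limma adjusted p = 0.00591). In each KO line that made 1 of 10 genes lower and 1 higher, beside 7.59% and 4.65% of all genes in IL1R1-KO-labelled cells and 9.32% and 5.60% in IL1RAP-KO. Libraries of the KO lines were both above WT RT for 5 genes and both below for the other 5 under the IL1R1-KO label (28.5% and 29.9% of all genes), and for 4 and 3 in IL1RAP-KO RT (25.5% and 27.9%). None of the 10 was called at a fold over 2 (1.95% of all genes lower and 1.16% higher in IL1R1-KO-labelled cells, 2.08% and 0.804% in IL1RAP-KO).

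The CHEK1 difference in IL1R1-KO-labelled cells was -0.65 to -0.63 whichever irradiated library of either group was left out, with limma adjusted p of 0.0802 to 0.103. In IL1RAP-KO it was -0.71 and -0.69 without WT RT replicate 1 or 2 (limma adjusted p = 0.0859 and 0.0593). RNF8 differed by 0.44 and 0.52 without WT RT replicate 1 (limma adjusted p = 0.068 and 0.0502), and by 0.56 in IL1R1-KO-labelled cells without IL1R1-KO RT replicate 2 (0.0558). The CHEK1 difference in IL1RAP-KO was -0.44 without IL1RAP-KO RT replicate 1 (limma adjusted p = 0.0106). When scaled to nuclear protein-coding genes, CHEK1 differed by -0.30 and -0.43 (limma adjusted p = 0.15 and 0.0573). Under that scaling the median of all genes lay at 0.31 and 0.24, relative to which CHEK1 was at -0.61 and -0.67, and MDC1, RNF8, RNF168 and TOPBP1 passed as higher in both KO lines, where 31% and 26.2% of all genes did. The sign of both genes was the same in every setting run.

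The other 8 genes did not pass after RT. Nearest in IL1RAP-KO were MDC1 (0.41, 95% interval 0.10 to 0.71, limma adjusted p = 0.0724) and TOPBP1 (0.26, 0.05 to 0.48, limma adjusted p = 0.0965). ATM in IL1R1-KO-labelled cells came next (-0.41, -0.74 to -0.08, limma adjusted p = 0.104). The response to RT was not shown to differ between genotypes for any of the 10, with 0 of 10 interactions passing by limma (2.01% of all genes lower and 0.804% higher for IL1R1-KO, 1.06% and 0.301% for IL1RAP-KO). With a fold over 2 the shares of all genes called were 0.954% lower and 0.503% higher for IL1R1-KO and 0.673% and 0.157% for IL1RAP-KO. At an unadjusted p under 0.05, CHEK1, RNF8 and ATM passed for IL1R1-KO, and CHEK1 and RNF8 for IL1RAP-KO. The CHEK1 interaction was -0.71 for IL1R1-KO (limma adjusted p = 0.104) and -0.92 for IL1RAP-KO (limma adjusted p = 0.065). With 1 library left out these values ran from -0.79 to -0.63 and from -1.18 to -0.67. For RNF8 the interaction was 0.54 (limma adjusted p = 0.098) and 0.49 (limma adjusted p = 0.158). Its values with 1 library left out ran from 0.40 to 0.68 and from 0.35 to 0.63.

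**Figure D3:**
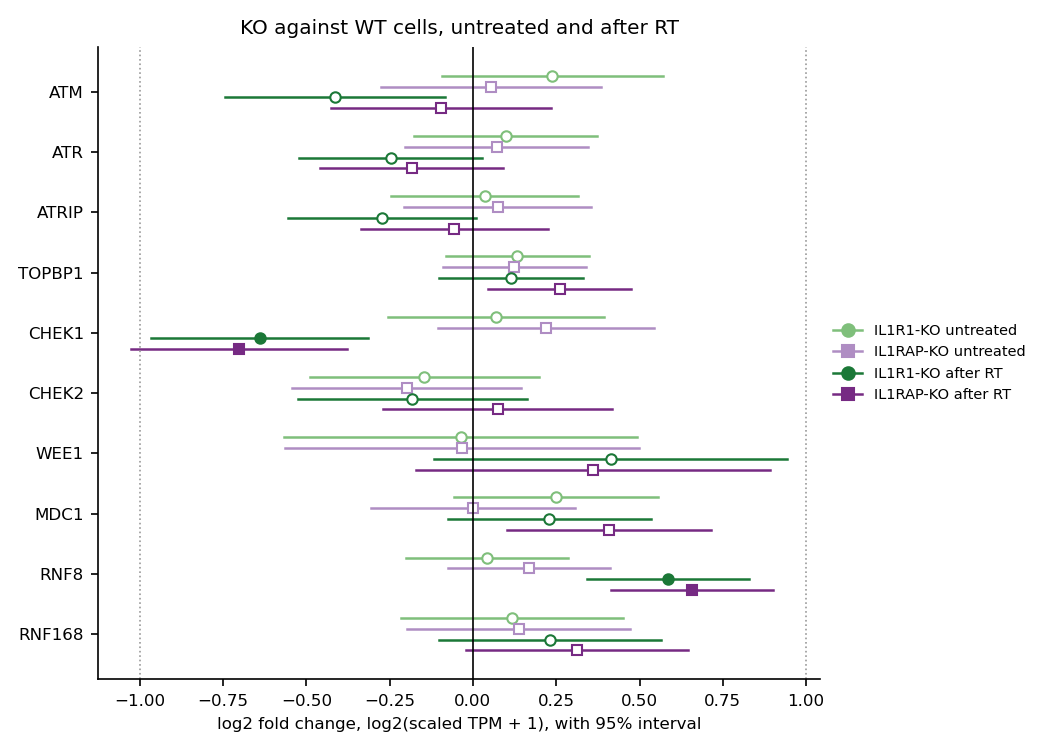
Log2 difference of KO from WT cells (x axis, bars are 95% intervals from the fit), untreated in light and after RT in dark colours, with circles for IL1R1-KO and squares for IL1RAP-KO. Only CHEK1, to the left at -0.64 and -0.70, and RNF8, to the right at 0.58 and 0.66, have filled points (adjusted p under 0.05), both after RT.

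The scaling of libraries moved the zero line of the RT comparisons. Scaled to the total of nuclear protein-coding genes, the median of all genes lay at 0.098 in WT, 0.40 in IL1R1-KO-labelled cells and 0.33 in IL1RAP-KO, and with TPM as deposited at -0.21, 0.029 and -0.28. CHEK1 remained lower after RT under each of the 4 scalings, at -0.93 to -1.30 in WT, -1.30 to -1.76 in IL1R1-KO-labelled cells and -1.58 to -2.29 in IL1RAP-KO. ATM remained higher in WT at 0.64 to 1.01 and in IL1RAP-KO at 0.41 to 1.145. Relative to the median of all genes, the median of the 10 genes was -0.57 to -0.62 in WT, -0.30 to -0.36 in IL1R1-KO-labelled cells and -0.21 to -0.34 in IL1RAP-KO. Under the nuclear scaling ATM and RNF168 rose in both KO lines, as did 44.9% and 41.1% of all genes, and CHEK2 passed in neither.

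**Figure D4:**
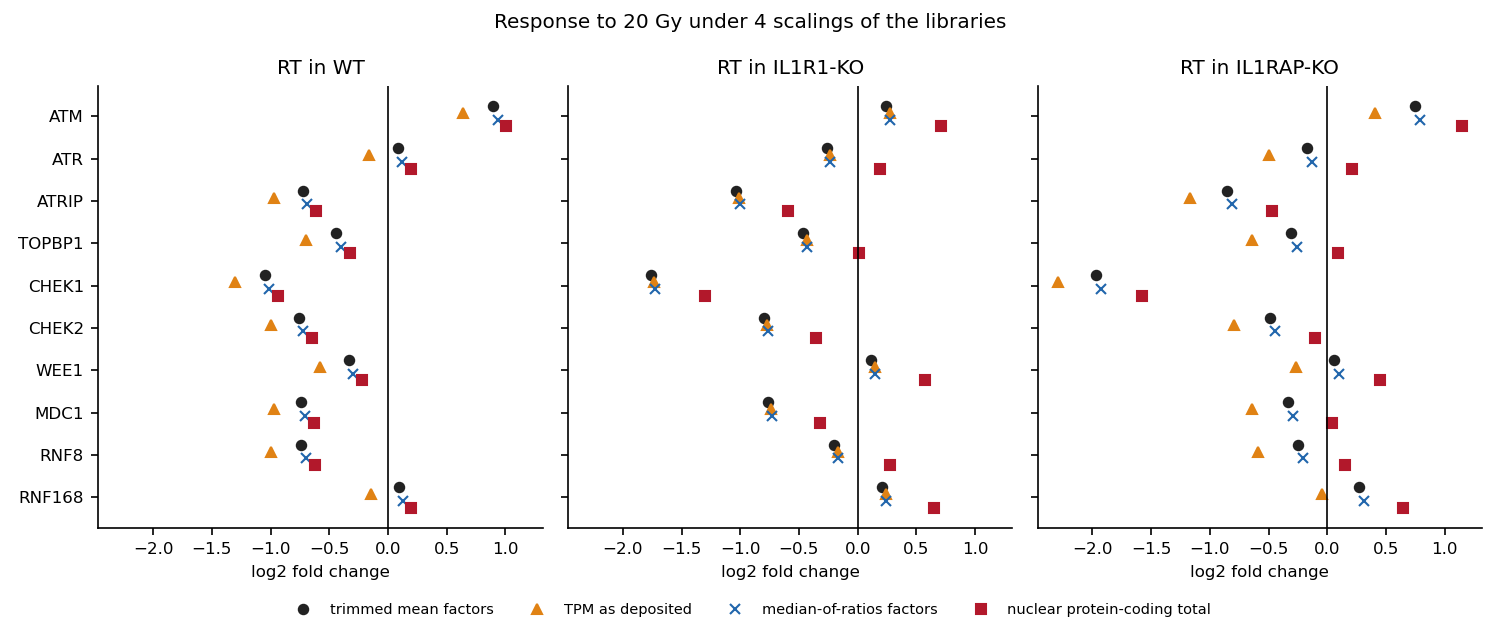
Log2 fold change after RT (x axis) of the 10 genes in each genotype under trimmed mean factors, TPM as deposited, median-of-ratios factors and the nuclear protein-coding total. CHEK1 is to the left of 0 throughout (-0.93 to -2.29), while TOPBP1 reaches 0.0078 and 0.093 in the KO lines under the last scaling.

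The neighbours of these genes in the pathway were described from 7 lists. Beside the list counts stand the shares of all genes, of which 23.7%, 26.1% and 27.3% fell after RT in the WT, IL1R1-KO and IL1RAP-KO lines and 19.8%, 22% and 22.7% rose. Of 16 break sensors and chromatin mediators, 11, 10 and 9 fell, while 1, 0 and 3 rose. H2AX, the histone that ATM marks, was at 20.9 and 19.8 scaled TPM in WT and at 7.75 and 7 in WT RT (-1.349, limma adjusted p = 0.000199). BRCA1 fell in each genotype (-1.11, -1.19 and -1.29). The gene of 53BP1 rose in WT (0.53, limma adjusted p = 0.00202) and was named after its values were seen. RAD50, of the MRE11 complex that recruits ATM, did not pass in WT (0.0050, limma adjusted p = 0.985).

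Of 12 single-stranded DNA sensors and ATR activators, 7 fell in each genotype (23.7% to 27.3% of all genes), and RAD17 alone rose, in IL1RAP-KO cells (0.56, limma adjusted p = 0.0394). RAD17 was named after its values were seen. CLSPN, whose product claspin lets ATR phosphorylate CHEK1, was at 4.13 and 5.34 scaled TPM in WT and at 0.720 and 0.761 in WT RT (-1.71, limma adjusted p = 0.000123). TIMELESS and TIPIN, a pair that travels with replication forks, fell by 1.37 and 1.26 on the log2 scale in WT. RPA1 fell in all 3 genotypes (-0.72, -0.87 and -0.99). RPA2 passed only in IL1R1-KO-labelled cells (-0.38), and a difference between genotypes was not shown.

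Of 7 further PI3K-like kinases and their chaperones, 2 fell and 1 rose in each genotype, shares near those of all genes. PRKDC, the catalytic subunit of DNA-PK, was at 96.4 and 106 scaled TPM in WT and at 62.5 and 58.1 in WT RT (-0.73, limma adjusted p = 0.000321). SMG1, the kinase of nonsense-mediated decay, was at 15.7 and 16 in WT and at 22.1 and 23.9 in WT RT (0.51, limma adjusted p = 0.00445). MTOR did not pass (-0.15, -0.07 and -0.24). SMG1 was named after its values were seen.

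Downstream of CHEK1, CHEK2 and WEE1, 9 of 11 checkpoint targets fell in each genotype (23.7% to 27.3% of all genes). PLK1, which restarts the cycle after a checkpoint, was at 68.4 and 59.9 scaled TPM in WT and at 1.346 and 1.43 in WT RT (-4.77, limma adjusted p = 5.24e-08). CCNB1, the cyclin partner of CDK1, fell by 3.60, 4.05 and 4.10 on the log2 scale. Of 6 genes listed as checkpoint recovery, 3, 3 and 4 rose (19.8%, 22% and 22.7% of all genes). USP7 of this list, which encodes a deubiquitinase, fell in each genotype (-0.46, -0.86 and -0.45). USP7 was named after its values were seen. CDKN1A, the p21 inhibitor of cyclin-dependent kinases, is in this list and rose in each genotype (1.51, 2.13 and 1.72). The counts of this list therefore do not show recovery from a checkpoint. MDM2, a ubiquitin ligase gene, also rose in each genotype, in WT from 177 and 185 scaled TPM to 424 and 382.

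Markers of cell division fell after RT in each genotype, as did CHEK1, CHEK2, ATRIP and TOPBP1. By contrast, ATM rose in WT and IL1RAP-KO cells, and ATR, RNF168 and WEE1 passed in no genotype. All 15 mitosis markers fell after RT in each genotype (medians -3.21, -3.82 and -4.00), as did all 14 DNA replication markers (medians -1.82, -2.10 and -2.05), beside 23.7% to 27.3% of all genes. After RT, the medians of KO against WT cells were -0.47 and -0.48 for mitosis markers (5 and 6 of 15 lower, 0 higher) and -0.37 and -0.37 for replication markers (2 and 3 of 14 lower, 0 higher), where 7.59% and 9.32% of all genes were lower. The part of these markers, or of the mitochondrial share, in the values of CHEK1 and the other 9 genes was not tested.

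**Figure D5:**
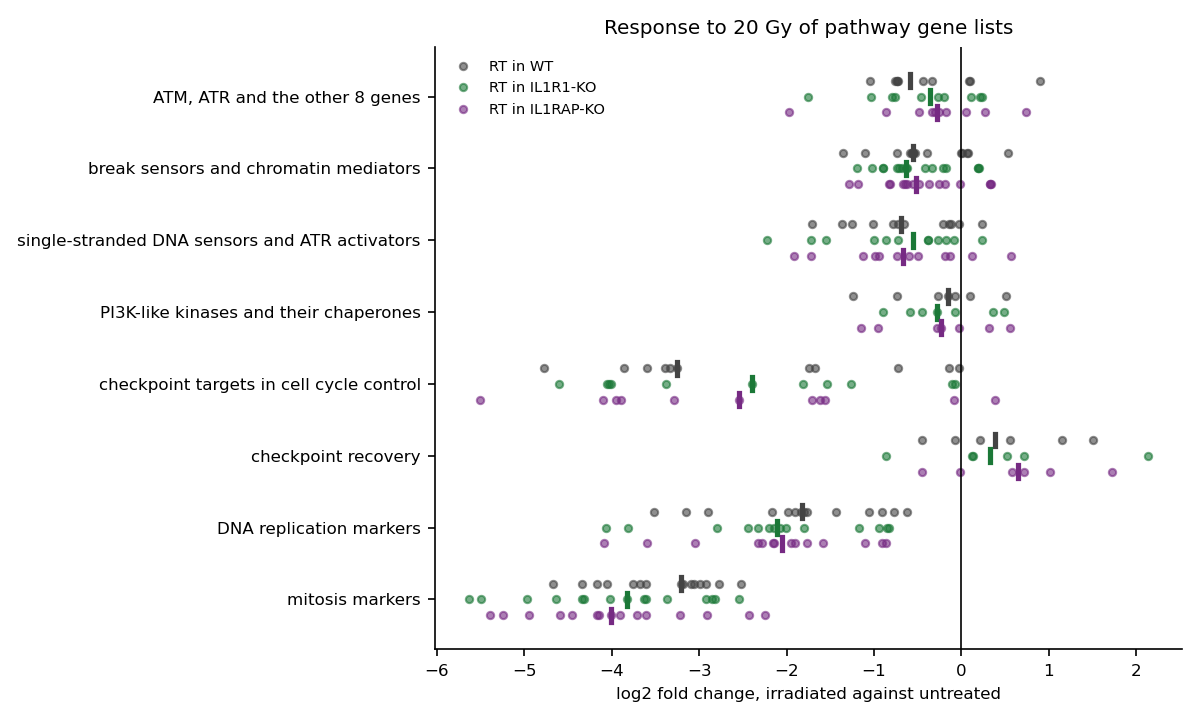
Log2 fold change of irradiated against untreated cells (x axis) for each gene of the 10 and of 7 related lists, with 1 point per gene, bars at the list medians and colours for the 3 genotypes. The 10 genes have medians of -0.59, -0.36 and -0.28, to the right of the mitosis markers at -3.21, -3.82 and -4.00.

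Genes with the most similar pattern over the 12 libraries were found by Pearson's r on log2 values. The 12 libraries share the RT contrast, so r is a description. For CHEK1 they were POLQ (r = 0.994; 0.755 within the 6 untreated and 0.985 within the 6 irradiated libraries), WDR3 (0.993) and DAZAP2 (0.990). For ATM they were ST3GAL6 (0.973), ZBTB10 (0.973) and HSPA1A (0.972). RNF8 was most like ESRP1 (0.974; 0.440 within untreated and 0.996 within irradiated libraries), STK24 (0.968) and NT5C3A (0.959). Among the 10 genes, ATRIP and CHEK1 had r = 0.947 over 12 libraries but 0.016 within untreated and 0.417 within irradiated ones.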

How the data were processed

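The authors depleted total RNA of ribosomal RNA, made stranded libraries, and used cutadapt 1.15 for trimming, STAR 2.5.3a for alignment of read pairs (GRCh38) and HTSeq for counting. The deposited values are TPM in steps of 0.01, and the gene lengths behind them are not given in the sources used here. The 12 single-library tables equalled their columns. Kept were 15303 genes, each at 1 TPM or more in 2 or more libraries. TPM were rescaled by unweighted trimmed mean factors (30% of M and 5% of A trimmed at each end), a pseudocount of 1 was added, and log2 values of all 12 libraries were fitted as 6 group means (R 4.3.3, limma 3.58.1, trended variance, 6 residual degrees of freedom, no replicate block), with p-values adjusted over all genes. The script was tested on simulated data. P-values rest on the spread between the 2 replicates of all 6 groups, pooled per gene and moderated across genes, not on the compared groups alone. Deviations of same-numbered libraries correlated at -0.06 to 0.09, so the numbers did not pair them. The genes and lists were chosen with earlier results of these data known. All 10 genes are named. Of each list, at most 4 called genes (lowest adjusted p first) and 2 more of high level could be named, a part of which is printed, and for each of the 10 genes the 3 most similar genes. Positions are from GENCODE v44 and upstream windows from RefSeq. Alternatives were scaling, pseudocount, filters, fold threshold, variance trend, libraries fitted and left out, and replicate block. Proteins were not used here, and 1 listed gene is not reported here.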

Additional observations from a re-analysis of the deposited data

How the results depend on the processing

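At the lower fold threshold of the study's methods, 6, 5 and 3 of the 10 were called lower after RT (WT, IL1R1-KO and IL1RAP-KO). At any fold the counts were 6, 5 and 4, beside 23.7%, 26.1% and 27.3% of all genes. Called higher at the lower threshold were 1 in WT and 1 in IL1RAP-KO, and KO against WT after RT gave 1 lower and 1 higher in each line. A lower threshold can only add calls, also among all genes, whose shares at it are not given here. With TPM as deposited, 2 were called lower in WT (10.8% of all genes) and 2 in IL1RAP-KO (16.5%), where 7 fell at any fold (37.6%). Then 1 interaction passed as lower in IL1RAP-KO (0.438% of all genes), and also 1 passed with a TPM minimum of 5. Scaled to nuclear protein-coding genes, 0 were called lower and 1 higher in WT (4.72% and 7.97% of all genes). Under that scaling 1 was called lower in IL1R1-KO (3.7%) and 1 higher in IL1RAP-KO (15.7%). At any fold 2 fell and 2 rose in each KO line, where 12.2% and 14.6% of all genes fell and 44.9% and 41.1% rose. KO against WT after RT gave 5 and 4 higher and 0 lower (31% and 26.2% of all genes higher, 3.26% and 3.87% lower). In each line 1 interaction passed upward (8.25% and 2.85% of all genes), and TOPBP1 after RT turned to 0.0078 and 0.093. With only the compared libraries fitted, fewer samples carrying the spread, 2 fell in IL1RAP-KO and 1 IL1R1-KO interaction passed. In that fit CHEK1 passed after RT in IL1R1-KO alone and RNF8 in neither line (0). For it and for the fits with 1 library left out, shares of all genes are not given here.

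Leaving out 1 library gave 1 to 2 called lower in IL1R1-KO after RT and 0 to 1 for the IL1RAP-KO interaction. At any fold it gave 2 to 4 lower and 1 to 2 higher in IL1RAP-KO after RT, 0 to 1 in each direction for IL1R1-KO against WT after RT, 0 to 1 lower and 0 to 2 higher for IL1RAP-KO, and 0 to 1 for the interactions.

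Of the context lists, called lower after RT, break sensors gave 1 (WT, nuclear scaling), 0 or 1 (IL1R1-KO) and 0 or 4 (IL1RAP-KO), single-stranded DNA sensors 6 (IL1RAP-KO, as deposited) and PI3K-like kinases 0 or 2 (IL1RAP-KO). Genes listed as checkpoint recovery and called higher were 1 as deposited (WT and IL1RAP-KO, 4.69% and 4.79% of all genes). Under the nuclear scaling they were 2 (IL1R1-KO, 17.9%). In WT, IL1R1-KO and IL1RAP-KO, 10.8%, 7.98% and 16.5% of all genes were called lower as deposited. The shares under the nuclear scaling were 4.72%, 3.7% and 4.48%. Leaving out 1 library gave 1 to 3 for break sensors, 3 to 5 for single-stranded DNA sensors, 0 to 2 for PI3K-like kinases, and 1 to 2 higher for checkpoint recovery in IL1RAP-KO. Apart from scalings, which move the zero line by construction, the cause of these shifts was not tested.

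With the replicate number as a block, every count of the 10 genes was the same, for example 6 lower and 1 higher in WT after RT, and CHEK1 after RT against WT had limma adjusted p = 0.0264 and 0.0197. Of 1250 values of single genes under alternatives, 65 changed sign, 63 of them where neither value had an adjusted p under 0.05. TPM keep no depth, so low levels carry an unknown counting error.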

Other observations

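The genes most like the other 7 by Pearson's r on log2 values over the 12 libraries, which share the RT contrast, were as follows. ATRIP was most like TIAL1 (r = 0.993), IMMT (0.989) and NUDT21 (0.989), CHEK2 like PHKA1 (0.972), HDGFL2 (0.971) and MIR600HG (0.961), and MDC1 like SPATA13 (0.976), WDR76 (0.966) and RNGTT (0.960). TOPBP1 was most like MRPS18C (0.965), SRP9 (0.962) and CNOT6 (0.962), and RNF168 like PHF20L1 (0.954), UBE2A (0.954) and ARV1 (0.947). For ATR and WEE1 the values were lower, ATR with PIN4 (0.881), MYH9 (0.853) and GLIPR1 (0.850), and WEE1 with TARS1 (0.889), COP1 (0.840) and RWDD2B (0.815).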
